A study of Homo sapiens with 20 samples.

Results

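The libraries described here are the 4 vehicle-treated ones of a series of 20 3′ mRNA libraries from IMR-32 cells, a long-established line from a human neuroblastoma in which the MYCN oncogene is amplified. They were chosen by label alone, as the samples that received DMSO, the drug solvent, for 24 h. The labels give all of them the genotype WT, the cell type neuroblast, the tissue Brain and the same batch number, and the cells adhered to culture flasks before the solvent was added. The other 16 libraries of the series were treated with drugs and enter no level given here. The labels do not say that the 4 libraries came from separate cultures, so the spread between them may be technical. The cell line has a single source, and the values describe that line and not neuroblastoma at large.

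Neuroblastoma arises from sympathetic precursors of the neural crest, the embryonic cells that also give rise to the sympathetic ganglia and the adrenal medulla. A set of transcription factors that includes HAND2 and GATA3 keeps such cells in a sympathetic, or adrenergic, state, and a second, mesenchymal state with other factors is known in some lines. MYCN is a transcription factor of the MYC family that pairs with MAX on DNA, and its amplification marks a high-risk form of the tumour. ALK is a receptor tyrosine kinase that is mutated in a fraction of these tumours.

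The libraries held 5203927, 3960885, 4922748 and 6448029 counts in replicates 1 to 4. Levels are in CPM, the counts of a gene per 1000000 counts of its library. A gene counts as expressed where it reached 1 CPM in every one of the 4 libraries. A gene with 0 counts could still have up to 3 counts at this depth, which is 0.465 to 0.757 CPM in a single library and 0.146 CPM over the 4 libraries together. Such limits cover counting error only. Among the 58787 annotated genes 12783 were expressed, or 21.7%, and 35783 had no count in any of the 4 libraries. The expressed genes included 11198 of the 19903 protein-coding genes, or 56.3%. Their median level was 24.3 CPM over all gene types and 28.8 CPM for coding genes. Protein-coding genes took 93.5% of all counts and long intergenic RNAs took 2.09%. The counts used here hold no genes of the mitochondrial chromosome, so library totals, CPM and shares of counts leave such genes out.

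The counts were concentrated in a small part of the genes. By mean CPM over the 4 libraries, the 110 genes at 1000 CPM or more held 23.5% ± 0.672 of the counts (SD, n = 4), and the 1959 genes from 100 to 1000 CPM held 47.9%. The 7132 genes from 10 to 100 CPM held 26.5%, and the 4811 genes from 1 to 10 CPM held 1.92%. The 10 most abundant genes took 6.72% ± 0.281 and the 100 most abundant took 22.5% ± 0.655 of the counts (SD, n = 4).

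The gene with the most counts was DDX1, which encodes a DEAD-box RNA helicase and lies next to MYCN on chromosome 2. It had 18479, 20202, 16879 and 18439 CPM in replicates 1 to 4, or 1.85% of all counts. It was the most abundant gene in every one of the 4 libraries. MALAT1, a nuclear long noncoding RNA, came second with 17571, 10542, 16668 and 9408 CPM. Its values in replicates 1 and 3 lay far above those in replicates 2 and 4. HSP90AA1, a cytosolic chaperone, followed with 6559, 6304, 7190 and 7212 CPM. PTMA, which encodes the acidic nuclear protein prothymosin alpha, had 4761 CPM, the DNA-binding protein gene NUCKS1 had 4379 CPM, and the chaperone gene HSP90AB1 had 4114 CPM on average. The glycolytic enzyme GAPDH had 3810 ± 488 CPM (SD, n = 4).

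**Figure D1:**
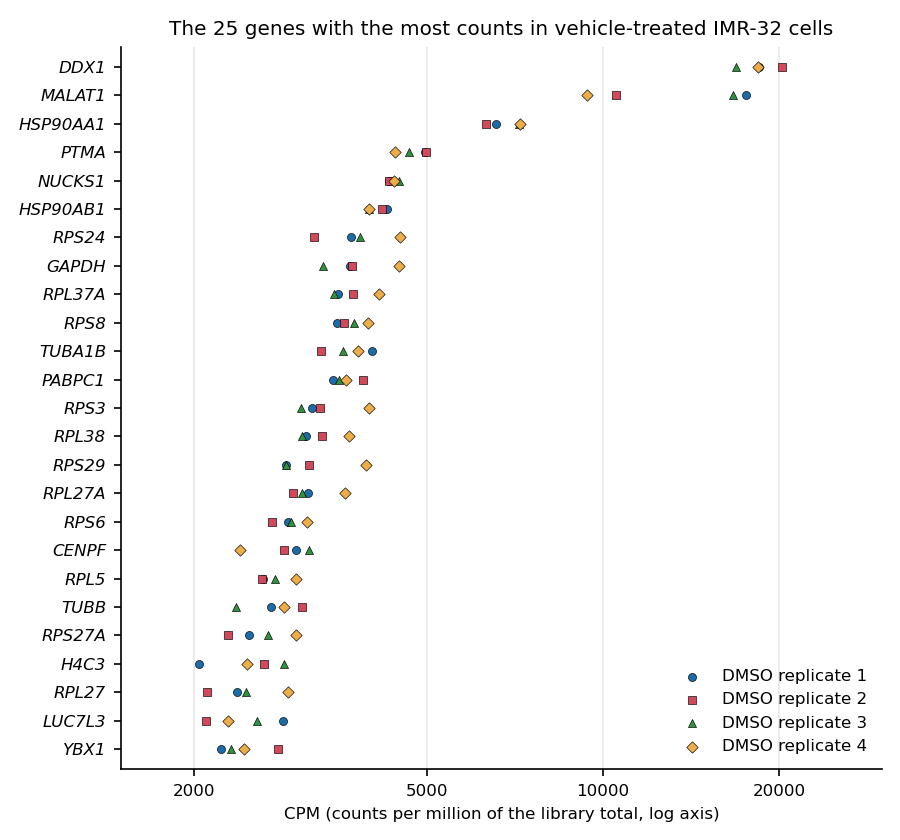
CPM of the 25 most abundant genes in each of the 4 DMSO libraries, on a log axis, with 1 marker per library. DDX1 leads in every library at 16879 to 20202 CPM, MALAT1 splits into 2 high and 2 low values, and the remaining 23 genes lie between 2043 and 7212 CPM.

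Proteins of the cytosolic ribosome made up a large part of the abundant transcripts. Of 83 genes of this group 81 were expressed, 41 were among the 100 most abundant genes and 11 were among the top 25. Together they took 10.1%, 9.90%, 10.4% and 12.1% of the counts in replicates 1 to 4 (mean 10.6% ± 0.996, SD, n = 4). Replicate 4 had the highest share. RPS24 had 3710, 3205, 3853 and 4494 CPM, and RPL37A had 3533, 3740, 3478 and 4143 CPM. Processed pseudogenes with near-identical sequence exist for many of these genes, and some had counts of their own: RPL36AP37, a pseudogene, ranked 65th with 1373 CPM. The sources used here do not give how reads that match several genes were treated, so single ribosomal protein genes, GAPDH and HSP90 genes are uncertain to that extent. Other members of the top 25 were the tubulin genes TUBA1B with 3688 CPM and TUBB with 2745 CPM, the poly(A)-binding protein gene PABPC1 with 3631 CPM, the mitotic gene CENPF with 2849 CPM, the histone gene H4C3 with 2499 CPM, the splicing-related gene LUC7L3 with 2447 CPM and the RNA-binding protein gene YBX1 with 2440 CPM. H4C3 belongs to the replication-dependent histone genes, whose transcripts mostly end without a poly(A) tail, while the assay primes from poly(A).

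Transcripts of ribosomal proteins are known for a 5′ terminal oligopyrimidine tract, a C at the first base followed by a run of C and T, through which their translation is controlled. The start sites annotated by RefSeq (GRCh38.p14) show it in the abundant members. The windows below hold 15 bases before the start and 15 bases from the start on, on the strand of the gene, with the tract in capitals within the window. DDX1 and MYCN are shown beside them as abundant genes without one.
RPS24: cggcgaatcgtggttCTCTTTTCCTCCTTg
RPL37A: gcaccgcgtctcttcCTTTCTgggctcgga
RPS3: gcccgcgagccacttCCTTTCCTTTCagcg
RPL38: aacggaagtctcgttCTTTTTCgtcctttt
RPS6: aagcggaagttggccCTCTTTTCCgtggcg
DDX1: gaagcgcgcgccgccactgccacgccgtgt
MYCN: cgagcttcaaagcgcaggctgtgacagtca
The windows lie at chr10:78033848-78033877 (plus strand) for RPS24, at chr2:216498829-216498858 (plus) for RPL37A, at chr11:75399503-75399532 (plus) for RPS3, at chr17:74203663-74203692 (plus) for RPL38, at chr9:19380222-19380251 (minus) for RPS6, at chr2:15591853-15591882 (plus) for DDX1 and at chr2:15940535-15940564 (plus) for MYCN. The tract was sought only at the annotated first base, as a C followed without a break by C or T to a length of at least 5 bases. It was present in 6 of the 9 ribosomal protein genes of the top 25 that had a window. It was present in 42 of 66 ribosomal protein genes with a window, or 63.6%, and in 4.66% of all 15300 coding genes with a window. Among the 47 genes of the top 100 that are no ribosomal protein genes and had a window, 9 had the tract, or 19.1%. A gene without the tract at this base may have it at another start site.

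MYCN itself (chr2:15940564-15947007, GRCh38, plus strand) had 1619, 1746, 1673 and 1883 CPM, a mean of 1730 ± 114 (SD, n = 4). It ranked 47th of all genes by CPM and 73rd by CPM per kb of exon, a scale given beside CPM for ratios of 2 genes. The spread of MYCN between the libraries was 6.59% of its mean. Its neighbours before it on the short arm of chromosome 2 were abundant too. DDX1 lies 309 kb before MYCN, and NBAS, which encodes a protein of Golgi-to-ER transport, lies 379 kb before it with 2058, 1872, 2131 and 1629 CPM. LRATD1, older symbol FAM84A, lies 1290 kb before MYCN and had 1841, 1938, 1906 and 1755 CPM. These 4 genes held 2.40%, 2.58%, 2.26% and 2.37% of all counts in replicates 1 to 4. They ranked 1st, 38th, 39th and 47th by CPM.

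On the other side of MYCN no coding gene within 3 Mb reached 1000 CPM. CYRIA, older symbol FAM49A and the first coding gene after MYCN at a distance of 609 kb, had 1.92, 2.78, 2.84 and 3.72 CPM. Further on, SMC6, a subunit of the SMC5/6 complex of DNA repair, had 189 CPM, the Holliday junction nuclease GEN1 had 47.3 CPM and the retinol dehydrogenase RDH14 had 28.7 CPM. Within 3 Mb on either side of MYCN 57 genes are annotated, of which 14 are coding and 9 of those were expressed. Of the 14 coding genes 4 were at 1000 CPM or more, against 105 of all coding genes, or 0.528%. The 1 Mb stretch of chromosome 2 that holds NBAS, DDX1 and MYCN had a summed level of 22152 CPM over its 3 coding genes, the highest of 2517 such stretches of the genome. The next, around PTMA, had 7786 CPM over 13 coding genes, and the median stretch had 138 CPM. How many copies of each gene the cells carried was not measured, so the number of copies and the output of each copy cannot be told apart.

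**Figure D2:**
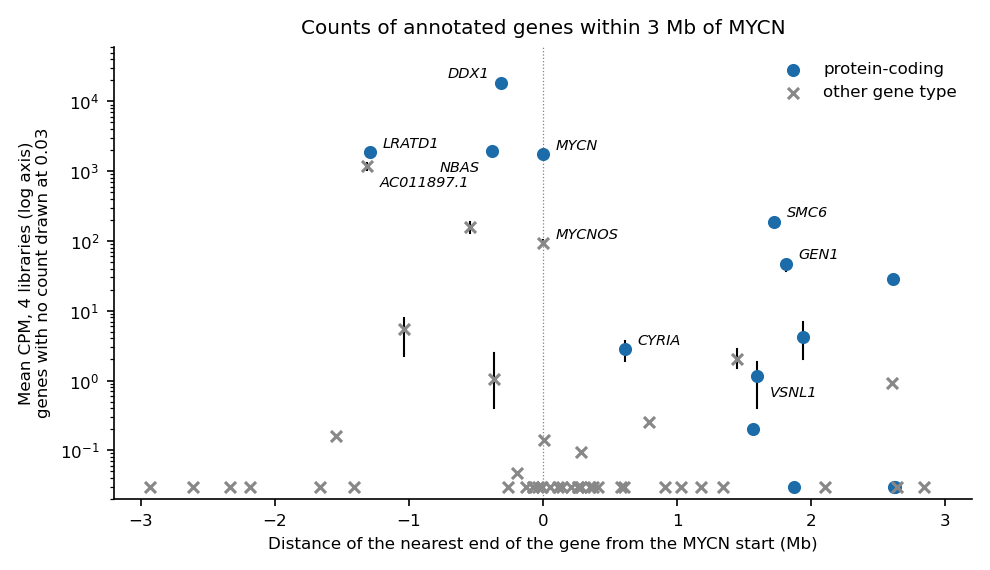
Mean CPM over the 4 DMSO libraries, on a log axis, of all 57 annotated genes within 3 Mb of MYCN, against their distance from the MYCN start; vertical lines span the lowest to the highest library, and genes with no count are drawn at 0.03. LRATD1, NBAS, DDX1 and MYCN stand above 1000 CPM, and CYRIA after MYCN stands near 3 CPM.

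The levels of these neighbours were unequal. DDX1 exceeded MYCN 10.7-fold ± 0.904 by CPM (SD, n = 4) and 7.26-fold by CPM per kb of exon. It exceeded NBAS 9.75-fold ± 1.58 by CPM and 22.5-fold per kb. Noncoding genes within 3 Mb of MYCN ranged from abundant to undetected. The intergenic RNA AC011897.1, next to LRATD1, had 1192 ± 120 CPM (SD, n = 4) and ranked 81st. MYCNOS, which overlaps the MYCN start on the opposite strand, had 88.6, 86.1, 89.0 and 104 CPM. The sources used here do not give the strand setting of the counting, so reads of MYCN and MYCNOS may be mixed. MYCNUT, an intergenic RNA just before MYCN, had no count.

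The other MYC genes had few counts. MYCL had 1.73, 4.04, 4.27 and 4.34 CPM, and MYC had 3 counts in all 4 libraries together, a mean of 0.159 CPM with an exact 95% Poisson interval of 0.0301 to 0.427 CPM. The ratio of MYCN to MYCL was 549 ± 259 by CPM (SD, n = 4) and 937 per kb of exon. The partners of the MYC network were expressed. MAX, the partner of all MYC proteins, had 81.9, 76.8, 78.8 and 81.7 CPM. Its spread was 3.09% of the mean, where counting alone gives 5.02%. Of the MAX partners that oppose MYC proteins, MXI1 had 83.7 CPM, MGA had 80.4 CPM, MXD4 had 54.4 CPM, MNT had 50.5 CPM, MXD3 had 25.1 CPM and MXD1 had 6.37 CPM on average. The related factors MLX and MLXIP had 115 and 109 CPM. Of 2 genes often named with MYCN, ODC1, the first enzyme of polyamine synthesis and a textbook MYC target, had 281 ± 22.9 CPM and LIN28B, which blocks let-7 microRNA maturation, had 47.0 ± 7.32 CPM (SD, n = 4). Its paralog LIN28A had no count.

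The transcription factors of the adrenergic state were expressed with few exceptions, 19 of the 21 listed, beside 56.3% of all coding genes. GATA3 (chr10:8045378-8075203, plus strand), a zinc finger factor of sympathetic neurons, had 990, 1085, 1112 and 927 CPM. HAND2 (chr4:173524969-173530229, minus strand), a basic helix-loop-helix factor, had 755, 874, 784 and 693 CPM. In both genes replicates 2 and 3 gave the higher values and the highest library was at most 1.26 times the lowest.

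Other factors of the same list were abundant as well. SOX11 and SOX4, high mobility group factors of immature neurons, had 1028 ± 81.7 and 703 ± 85.5 CPM (SD, n = 4). The homeobox factor PHOX2A had 340 CPM, the T-box factor TBX2 had 224 CPM, HAND1 had 172 CPM and the LIM homeobox factor ISL1 had 169 CPM on average. Paralogs were uneven. HAND2 exceeded HAND1 4.50-fold ± 0.246 by CPM and 2.17-fold per kb of exon. GATA3 exceeded GATA2 71.1-fold ± 19.1 by CPM and 89.0-fold per kb (SD, n = 4 each). GATA2 had 16.9, 17.7, 11.2 and 14.3 CPM. The exceptions were TFAP2B, a neural crest factor that ranged from 0.192 to 0.609 CPM, and INSM2, which ranged from 0.384 to 1.77 CPM and passed 1 CPM in replicate 2 only. LMO1, a neuroblastoma susceptibility gene, had 3.21 CPM, and ZNF536 had 11.8 CPM. SIX3 had 97.4, 94.3 and 97.2 CPM in replicates 1, 3 and 4 and 57.6 CPM in replicate 2.

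Genes of the mesenchymal state were expressed in 8 of 18 cases, where 56.3% of all coding genes were. VIM, which encodes the intermediate filament vimentin, had 339, 426, 370 and 365 CPM, and the factor TWIST1 had 263, 330, 267 and 248 CPM. Replicate 2 was highest in both. COL1A1, a fibrillar collagen chain, had 32.0 CPM, the surface protein gene THY1 had 26.2 CPM and the factor SNAI2 had 9.52 CPM on average. The factors PRRX1, RUNX2 and FOSL1 and the receptor AXL had no count in any of the 4 libraries. YAP1 and WWTR1, the transcriptional partners of the Hippo pathway, had 1.09 and 0.794 CPM, CD44 had 1.46 CPM, and NOTCH2 had 0.0961 CPM, which is under the limit that 0 counts allow. The summed level of the 18 genes was 740 ± 72.4 CPM, beside 9317 ± 497 CPM for the 21 adrenergic factors (SD, n = 4 each). The former came mostly from VIM and TWIST1, and the latter includes MYCN with 1730 CPM. The lists differ in size and in kind of gene, so the sums do not measure a cell state.

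**Figure D3:**
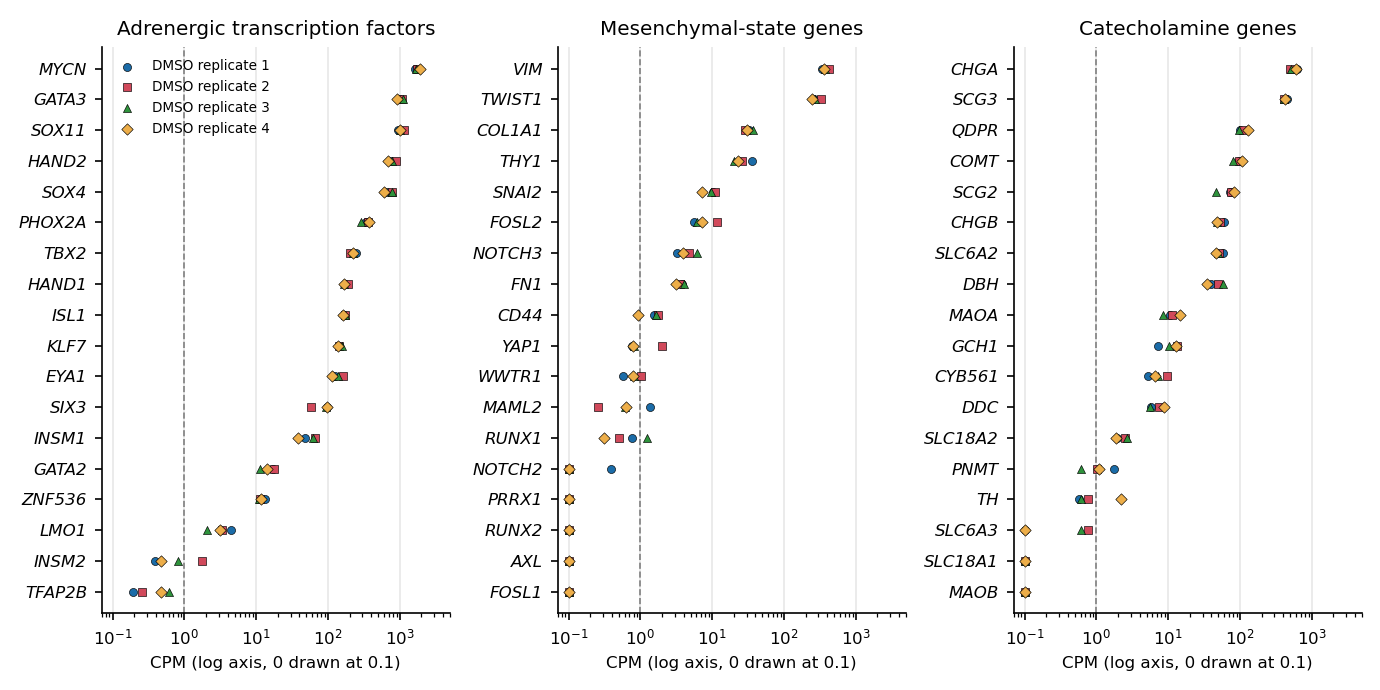
CPM in each of the 4 DMSO libraries, on a log axis, of genes of 3 lists, with 1 marker per library; the dashed line marks 1 CPM and values of 0 are drawn at 0.1. Most adrenergic factors lie above 100 CPM, whereas 10 of the 18 mesenchymal-state genes fall under 1 CPM in at least 1 library, and the catecholamine genes range from 0 to 631 CPM.

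Part of the machinery of sympathetic neurons was expressed and part was not. Of 18 genes of catecholamine synthesis, storage, uptake and breakdown 13 were expressed, beside 56.3% of all coding genes. The secretory granule proteins had the most counts, CHGA with 631, 501, 505 and 594 CPM and SCG3 with 448, 407, 412 and 420 CPM. DBH, which turns dopamine into noradrenaline, had 39.6, 49.5, 58.3 and 34.6 CPM. SLC6A2, the noradrenaline transporter, had 57.6, 50.7, 48.6 and 46.8 CPM. Its 3′ end overlaps another annotated gene on the same strand, so its level is uncertain. TH, the rate-limiting enzyme of the pathway, had 0.576, 0.757, 0.609 and 2.17 CPM and reached 1 CPM in replicate 4 only. DDC, the next enzyme, had 6.85 ± 1.55 CPM and GCH1, which makes the cofactor of TH, had 10.9 ± 2.68 CPM (SD, n = 4 each). The vesicular transporter SLC18A1 and the monoamine oxidase MAOB had no count, while SLC18A2 had 2.24 CPM and MAOA had 11.1 CPM on average.

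Genes of acetylcholine signalling were expressed in 6 of 9 cases, near the 56.3% of all coding genes. The nicotinic receptor subunit CHRNA3 of autonomic ganglia had 224, 213, 253 and 221 CPM, with CHRNA5, CHRNB2 and CHRNB4 at 68.0, 37.2 and 30.8 CPM on average. CHRNA3 exceeded CHRNA5 3.37-fold ± 0.463 by CPM and 2.55-fold per kb of exon (SD, n = 4). SLC18A3, the vesicular acetylcholine transporter, had 52.5, 36.4, 33.9 and 43.1 CPM. CHAT, which makes acetylcholine and shares its locus with SLC18A3, had 1.92, 1.01, 0.406 and 1.09 CPM, ACHE, which breaks it down, had 1.15, 0, 0 and 0.155 CPM, and the choline transporter SLC5A7 had no count.

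Neuronal genes were expressed in 25 of 26 cases, beside 56.3% of all coding genes. The microtubule protein genes MAP1B and STMN1 had 2117 ± 202 and 1814 ± 140 CPM, the ubiquitin hydrolase UCHL1 had 1063 ± 82.1 CPM and the tubulin TUBA1A had 967 ± 137 CPM (SD, n = 4 each). The neuronal RNA-binding proteins ELAVL4, ELAVL3 and ELAVL2 had 802, 489 and 276 CPM, and the synaptic vesicle protein SYT1 had 651 CPM on average. Genes of synapses and axons ranged widely. The neurofilament genes NEFH and NEFM were at 217 and 161 CPM and SYP was at 71.0 CPM on average. SNAP25 was at 56.3 CPM, MAPT at 35.2 CPM, GAP43 at 24.1 CPM and SYN1 at 15.9 CPM. TUBB3, the neuronal tubulin, had 2 counts in all, both in replicate 2. Its last exon overlaps the annotated gene AC092143.1 on the same strand, and that gene had no count either, so the level of TUBB3 is uncertain. The neuronal list summed to 9884 ± 249.5 CPM (SD, n = 4), the least variable sum of the lists above.

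Receptor tyrosine kinases were expressed in 18 of 28 cases, near the 56.3% of all coding genes. ALK (chr2:29192774-29921566, minus strand) had 22.1, 16.7, 17.9 and 18.9 CPM, a mean of 18.9 ± 2.33 (SD, n = 4), and ranked 10th among the 28 by CPM. It rested on 391 counts, and its spread was 12.3% of the mean, where counting alone gives 10.3%. By CPM the collagen receptor DDR2 with 236, 204, 218 and 181 CPM and the insulin-like growth factor receptor IGF1R with 95.7, 100, 102 and 72.6 CPM stood above it in every library. NTRK3, the receptor of neurotrophin 3, had 64.6, 53.5, 50.2 and 61.3 CPM. NTRK2, the receptor of brain-derived neurotrophic factor, had no count.

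FGFR1 and INSR, with 51.5 ± 6.75 and 47.9 ± 7.49 CPM, did not differ from each other beyond their spread (SD, n = 4 each). Below every library of both, PDGFRA, EGFR and DDR1 had 32.1 ± 5.58, 30.7 ± 2.94 and 28.02 ± 1.21 CPM, which did not differ among themselves beyond their spread (SD, n = 4 each). KIT had 17.2 ± 2.13 CPM (SD, n = 4), and its range overlapped that of ALK. Per kb of exon the order was another one: KIT had 3.08, ALK 2.57, EGFR 2.45 and NTRK3 2.15 CPM per kb, and ALK ranked 9th. That order divides by the union of all exons, while a 3′ assay counts transcript ends, so the order by CPM is the one to read. RET, the receptor subunit of the glial cell line-derived neurotrophic factor family, had 1.15, 2.02, 1.22 and 1.86 CPM. Besides NTRK2, the kinases without a count were LTK, the closest relative of ALK, and ERBB3, MET, FLT1, KDR, CSF1R and TEK. ERBB4 and ERBB2 were near 1 CPM.

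Ligands and co-receptors of these kinases were expressed in 12 of 24 cases, near the 56.3% of all coding genes. MDK, the heparin-binding growth factor midkine, had 675, 641, 586 and 678 CPM, and its relative PTN had 48.0, 44.4, 35.3 and 40.5 CPM. MDK exceeded PTN 15.5-fold ± 1.41 by CPM and 11.96-fold per kb of exon (SD, n = 4). GFRA2, which binds neurturin and acts with RET, had 297, 263, 289 and 284 CPM, and GFRA1, which binds glial cell line-derived neurotrophic factor, had 37.9 ± 6.85 CPM (SD, n = 4). The low-affinity neurotrophin receptor NGFR had 45.5 ± 1.53 CPM (SD, n = 4). ALKAL2, a ligand of ALK, had 7.11, 7.07, 3.45 and 6.203 CPM, and its relative ALKAL1 had no count. PDGFA was under 1 CPM, and GDNF, NTF3, HGF, EGF and IGF2 had no count. The last exon of IGF2 overlaps other annotated genes on the same strand, so its 0 is uncertain. The binding proteins IGFBP5 and IGFBP2 had 476 and 69.9 CPM on average, with IGFBP2 at 49.6 CPM in replicate 3 and at 75.5 to 78.0 CPM in the other libraries.

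Cell-cycle genes were expressed almost without gaps. All 15 S phase genes and all 18 mitotic genes passed 1 CPM in every library. So did 17 of 18 genes of S phase entry and 56.3% of all coding genes. CCND1, which encodes cyclin D1, had 620, 631, 646 and 592 CPM, CCND3 had 25.4, 22.2, 19.1 and 22.8 CPM, and CCND2 had no count. CCND1 exceeded CCND3 28.2-fold ± 4.12 by CPM and 33.4-fold per kb of exon (SD, n = 4). The partner kinases CDK6 and CDK4 had 830 ± 98.9 and 497 ± 42.3 CPM (SD, n = 4 each). By CPM the ratio of CDK6 to CDK4 was 1.69, and per kb of exon it was 0.432. A 3′ assay counts transcript ends, so the order by CPM is the one to read. CDK2 had 242 CPM, the transcription factors E2F3 and E2F1 had 202 and 134 CPM, the cyclins CCNE2 and CCNE1 had 29.6 and 20.2 CPM, and RB1, the pocket protein that holds E2F factors back, had 50.8 CPM on average.

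Of 8 inhibitors of cyclin-dependent kinases 7 were expressed, beside 56.3% of all coding genes. CDKN1B had 124, 132, 118 and 132 CPM, CDKN2C had 80.5, 90.1, 74.96 and 98.2 CPM, and CDKN1A had 55.5, 56.3, 37.8 and 65.4 CPM. CDKN2A had 18.6, 33.3, 15.4 and 25.4 CPM, the widest spread of the 7 relative to its mean, and its neighbour CDKN2B had 0.192, 0.252, 0 and 0.620 CPM. Replicates 2 and 4 were above replicates 1 and 3 in CDKN1B, CDKN2C, CDKN1A and CDKN2A, an order that 23.2% of all genes of at least 50 CPM had.

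In S phase genes the ribonucleotide reductase subunit RRM1 had 570.5 ± 23.7 CPM, and the helicase subunits MCM2, MCM7 and MCM3 had 258, 246 and 232 CPM. TYMS, thymidylate synthase, had 235, 239, 235 and 240 CPM. It was among the 12 with the smallest spread of the 3937 genes with a symbol and a mean of at least 50 CPM. PCNA, the sliding clamp, had 197, 255, 189 and 258 CPM, with replicates 2 and 4 above the others. Among mitotic genes CENPF, which encodes a kinetochore protein, had 2988, 2857, 3151 and 2400 CPM, and TOP2A, topoisomerase II alpha, had 2108, 2164, 2289 and 2185 CPM. MKI67, the proliferation marker Ki-67, had 792, 697, 767 and 577 CPM. The anaphase-promoting enzyme UBE2C had 252 CPM, the kinase AURKB had 202 CPM, CDK1 had 187 CPM, and the cyclins CCNB2 and CCNB1 had 145 and 134 CPM on average. In bulk RNA the number of dividing cells and the RNA of each such cell cannot be told apart.

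**Figure D4:**
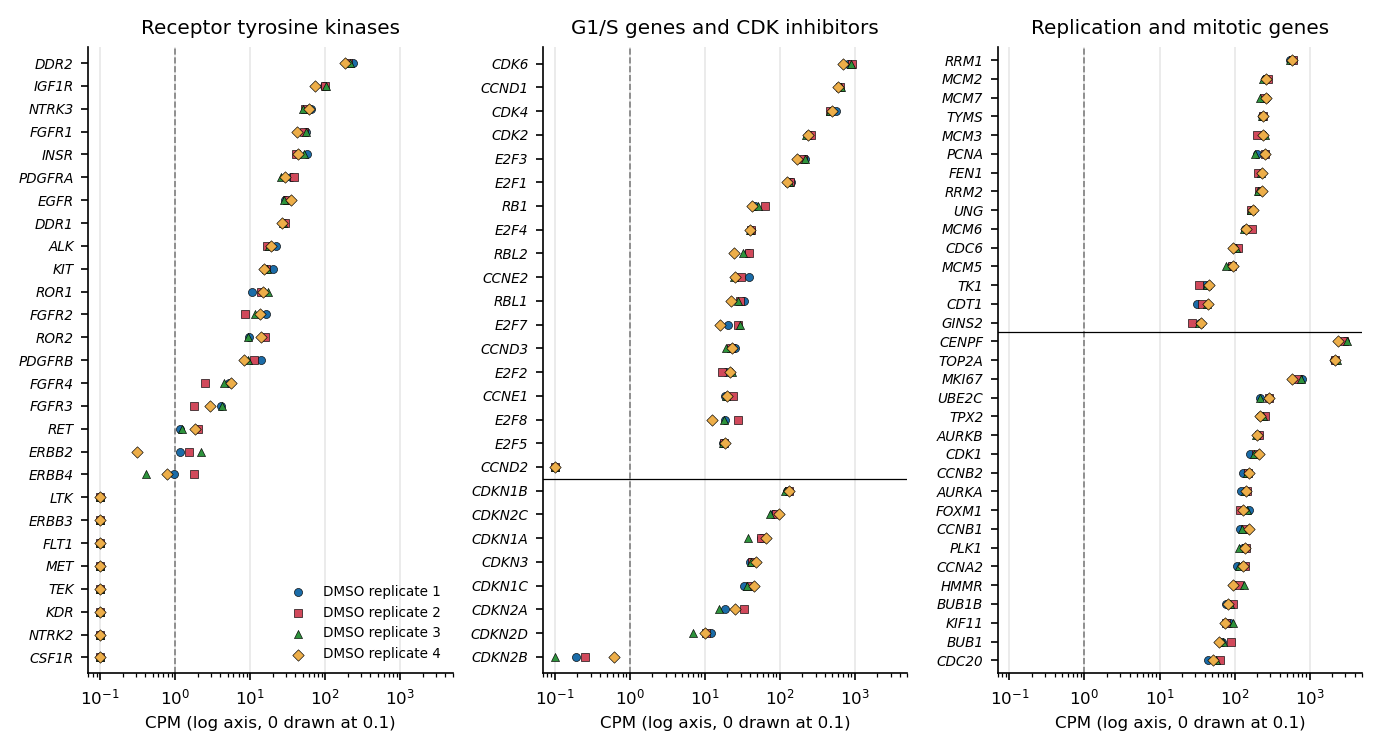
CPM in each of the 4 DMSO libraries, on a log axis, of receptor tyrosine kinases, of G1/S genes above and CDK inhibitors below a line, and of S phase genes above and mitotic genes below a line; the dashed line marks 1 CPM and 0 is drawn at 0.1. No count is seen for 8 kinases and CCND2, ALK stands at 16.7 to 22.1 CPM, and all replication and mitotic genes lie above 20 CPM.

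The replication checkpoint, whose inhibition is named in the title of the series, was present throughout. All 22 genes of the list for this pathway, MUS81 and the dynamins were expressed, beside 56.3% of all coding genes. CHEK1, the checkpoint kinase, had 33.2, 30.8, 37.6 and 26.7 CPM, ATR, the kinase upstream of it, had 32.7, 24.7, 33.7 and 22.8 CPM, and CLSPN, the adaptor between both, had 355, 265, 310 and 261 CPM. In each of these genes replicates 1 and 3 were above replicates 2 and 4, the order of 21.7% of all genes of at least 50 CPM. The phosphatases CDC25B and CDC25A, which release CDK activity, had 110 and 97.8 CPM, and the opposing kinases PKMYT1 and WEE1 had 76.0 and 52.0 CPM on average. MUS81, an endonuclease that cuts stalled forks, had 62.1, 49.7, 46.1 and 52.6 CPM, and its partner EME1 had 31.3, 43.2, 39.8 and 25.9 CPM. The other partner, EME2, had 5.84 CPM. Of the dynamins, the GTPases that pinch off vesicles, DNM2 had 53.6, 61.6, 54.0 and 62.7 CPM, the neuronal DNM1 had 20.4, 11.6, 24.2 and 21.6 CPM and DNM3 had 6.26 CPM on average. DNM2 exceeded DNM1 3.27-fold ± 1.38 by CPM and 2.39-fold per kb of exon (SD, n = 4). DNM1L, which divides mitochondria, had 127 ± 11.4 CPM (SD, n = 4).

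Surface antigens studied as targets in neuroblastoma were expressed in 11 of 13 cases, beside 56.3% of all coding genes. NCAM1 had 378, 321, 336 and 286 CPM, CD24 had 198 CPM, CD276, also known as B7-H3, had 106, 105, 99.5 and 103 CPM, DLL3 had 91.1 CPM, GPC2 had 71.6 CPM and L1CAM had 69.8 CPM on average. Of the enzymes that make the ganglioside GD2, B4GALNT1 had 48.6 ± 6.11 CPM and ST8SIA1 had 10.1 ± 2.34 CPM (SD, n = 4 each). CD274, which encodes PD-L1, had counts in replicate 2 only, at 0.757 CPM.

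Genes of antigen presentation were expressed in 4 of 15 cases, beside 56.3% of all coding genes. B2M, the light chain of class I molecules, had 262, 313, 237 and 339 CPM. HLA-B, HLA-C and HLA-E had no count. The class I genes are near-identical and highly variable, and the annotated ends of HLA-B and HLA-C overlap, so values for single HLA genes are uncertain. The peptide transporter TAP1, the immunoproteasome subunit PSMB8, HLA-DRA and CD74 also had no count. TAPBP had 15.2 CPM and ERAP1 had 2.10 CPM.

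Of 19 genes of the BCL2 family and the caspases 16 were expressed, beside 56.3% of all coding genes. The antiapoptotic MCL1 had 228, 272, 229 and 230 CPM and BCL2 had 50.5, 57.3, 64.4 and 44.4 CPM. MCL1 exceeded BCL2 4.50-fold ± 0.689 by CPM and 11.9-fold per kb of exon (SD, n = 4). The annotated end of MCL1 overlaps an antisense-named gene on the same strand, so part of its counts is uncertain. The caspase inhibitors BIRC5 and XIAP had 211 and 77.7 CPM, and the BH3-only gene PMAIP1 had 73.8 CPM on average. CASP8, the initiator caspase of death receptors that is known to be silenced in many MYCN-amplified tumours, had 4 counts in all, a mean of 0.179 CPM with an exact 95% Poisson interval of 0.0531 to 0.499 CPM, and CASP10 had no count.

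Telomere genes were expressed in 6 of 8 cases, beside 56.3% of all coding genes. ATRX, a chromatin remodeller lost in some neuroblastomas, had 638, 575, 602 and 523 CPM, and DKC1, a telomerase component and a known MYC target, had 528, 594, 560 and 574 CPM. TERT, the catalytic subunit of telomerase, had 1.15, 1.51, 2.23 and 0.155 CPM. The RNA subunit TERC had no count, but its row overlaps a second annotation of the same RNA. Of the retinoid receptors RARA had 29.6 CPM, RXRA had 48.0 CPM and RARB had 0.620 CPM, and of the imprinted genes MEG3 had 139 CPM, PEG10 had 57.2 CPM and DLK1 had 4.75 CPM on average. H19 had 1.35, 1.01, 2.84 and 0.310 CPM, and without replicate 3 its mean was 0.888 CPM.

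The label Brain was set against markers of brain tissue. Of 11 genes of brain glia and forebrain neurons 2 were expressed, beside 56.3% of all coding genes. These were SLC1A3 with 8.48 CPM and SLC17A7 with 1.70 CPM, and the summed level of the 11 genes was 7.83 to 12.1 CPM. GFAP of astrocytes had 1 count in all, and AQP4, OLIG1, OLIG2, MBP, EMX1, GAD1 and GAD2 had none. The genes taken as markers of a neuroblast, MYCN, GATA3, HAND2 and ALK, were expressed in every library. So were 56.3% of all coding genes, and ALK with 18.9 CPM lay under the median of expressed coding genes, 28.8 CPM. Passing 1 CPM thus does not single out a neuroblast.

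Markers of most other cell types had few counts, with more for some genes of fibroblasts and for NES of neural progenitors. The summed level was 6.31 to 7.44 CPM for 7 genes of Schwann cells, and SOX10, the defining factor of neural crest glia, had no count. It was 0.609 to 2.52 CPM for 7 genes of blood cells, 0 to 0.384 CPM for 6 genes of endothelium and 0 to 1.35 CPM for 5 genes of the adrenal cortex. Epithelial genes summed to 9.34 to 13.6 CPM, almost all of it from CDH1 with 11.4 CPM, while KRT5, KRT18 and KRT19 had no count. Melanocyte genes summed to 21.5 to 24.8 CPM, mostly PMEL and MITF, and TYR and MLANA had no count. Fibroblast genes summed to 70.4 to 86.7 CPM, which came from PDGFRA, COL1A1 and PDGFRB, and DCN and LUM had 1 count each. NES, a filament gene of neural progenitors, had 124 ± 7.21 CPM (SD, n = 4). In the same list SOX2 had 5.83 CPM on average, PAX6 had 3 counts in all, and POU5F1 and NANOG had no count.

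Over all 29 lists 266 of 381 different genes were expressed, or 69.8%, against 56.3% of all coding genes. The lists were chosen with earlier results of these data known, so no result is drawn from that share. Of the 381 genes 62 had no count and 17 more had no more than 3 counts in all. Of the genes that were not expressed 6 overlap another gene at their annotated 3′ end on the same strand.

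Promoters of expressed and silent genes differed in their sequence. In the RefSeq window of 250 bases before to 50 bases after the annotated start, coding genes at 100 CPM or more held a median of 27 CG dinucleotides, genes from 10 to 100 CPM also 27, genes from 1 to 10 CPM 25, genes under 1 CPM with a count 15, and genes with no count 5. CG-rich promoters are known for broadly used genes. The 100 bases before the start are given for 4 genes that the results turn on, MYCN and DDX1 as neighbours on chromosome 2, the adrenergic factor HAND2, and the keratin KRT5 as a gene with no count, with CG in capitals.
MYCN: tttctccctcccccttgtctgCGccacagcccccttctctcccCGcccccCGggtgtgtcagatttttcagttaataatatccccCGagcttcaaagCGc
DDX1: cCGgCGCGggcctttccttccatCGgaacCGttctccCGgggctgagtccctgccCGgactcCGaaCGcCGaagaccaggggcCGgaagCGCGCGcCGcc
HAND2: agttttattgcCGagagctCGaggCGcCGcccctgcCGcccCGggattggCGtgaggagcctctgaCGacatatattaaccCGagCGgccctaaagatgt
KRT5: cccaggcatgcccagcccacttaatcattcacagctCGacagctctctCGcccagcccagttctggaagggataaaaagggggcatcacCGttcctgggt
They lie at chr2:15940450-15940549 (plus strand) for MYCN, chr2:15591768-15591867 (plus) for DDX1, chr4:173530230-173530329 (minus) for HAND2 and chr12:52520395-52520494 (minus) for KRT5, all GRCh38.p14. DDX1 held 15 CG in these 100 bases, HAND2 held 10, MYCN held 5 and KRT5 held 3. In the whole window of 300 bases the counts were 31 for DDX1, 15 for HAND2, 14 for MYCN and 7 for KRT5, so the window of MYCN held fewer than the median gene of its level.

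The letters CACGTG, the E-box that MYC family proteins can bind and the same on both strands, were in the window of 13.0% of coding genes at 100 CPM or more, in 10.2% from 10 to 100 CPM, in 9.29% from 1 to 10 CPM, in 6.42% under 1 CPM with a count and in 6.03% of genes with no count, against 8.87% of all 15300. Among the 78 coding genes of the 100 most abundant that had a window, 7.69% held it. The letters contain a CG themselves. The letters TATAAA on either strand were in 6.11% at 100 CPM or more, in 3.96% from 10 to 100 CPM, in 7.47% from 1 to 10 CPM, in 10.6% under 1 CPM with a count and in 20.2% of genes with no count, but in 12.8% of those 78. These letters are no proof of a bound site.

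The spread between the libraries was small for genes with many counts. Relative to the mean, the median SD was 9.49% for genes at 1000 CPM or more, 9.33% from 100 to 1000 CPM, 13.0% from 10 to 100 CPM and 32.2% from 1 to 10 CPM. Counting alone gives 1.13%, 3.362%, 8.01% and 24.4% in the same order. The common biological coefficient of variation, the spread beyond counting error, was 12.25% over 11719 genes. Of the 3937 genes with a symbol and a mean of 50 CPM or more, the highest library was a median of 1.25 times the lowest, 15 genes exceeded 2 times and 275 stayed within 1.1 times. Pearson's r of log2(CPM + 0.5) between libraries was 0.979 to 0.985 across genes, which are not independent replicates, and the counts of each pair differed by more than sampling noise (chi-square per degree of freedom 3.28 to 8.46).

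**Figure D5:**
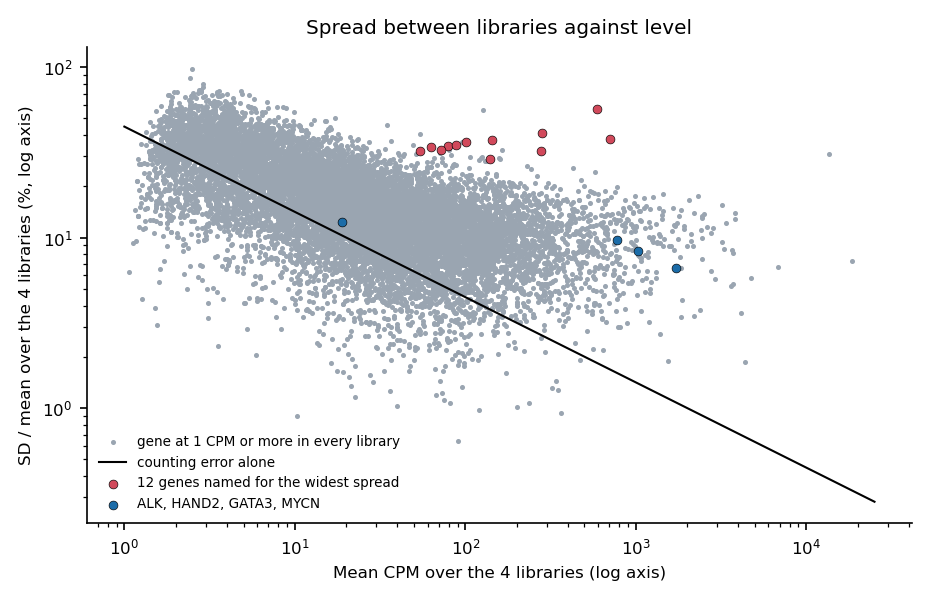
SD divided by the mean over the 4 DMSO libraries against mean CPM for the expressed genes, both on log axes, with the line that counting error alone gives. The 12 genes with the widest spread on the log2 scale among genes of at least 50 CPM lie at 29.1% to 57.0%, and MYCN, GATA3 and HAND2 lie at 6.59% to 9.65%.

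Of the 12 genes with the widest spread on the log2 scale among genes of at least 50 CPM, 7 shared an order of the libraries. MTATP6P1, a nuclear copy of mitochondrial sequence, had 1027, 287, 672 and 371 CPM. Its relative MTND1P23 had 219, 108, 147 and 103 CPM, and both may hold reads of the mitochondrial genes they copy. KCNQ1OT1, an imprinted antisense RNA that stays in the nucleus, had 395, 184, 362 and 179 CPM, and the long noncoding HELLPAR had 136, 84.6, 126 and 57.4 CPM. In all 4 of these genes replicates 1 and 3 were above replicates 2 and 4, as they were in MALAT1. The same held for ANKRD36, GOLGA8A and GOLGA8B, members of families with near-identical copies, so for 7 of the 12 genes, or 58.3%, against 21.7% of all 3937 genes. MALAT1 and KCNQ1OT1 are RNAs of the nucleus. The nuclear share of the RNA in each library was not measured, and its part in this order was not tested. The opposite order, with replicates 1 and 3 below replicates 2 and 4, held for 23.2% of all 3937 genes and for 1 of the 12. Other orders were common too. Among all 3937 genes replicates 1 and 2 were above replicates 3 and 4 in 14.22% and below them in 10.08%. Replicates 1 and 4 were above replicates 2 and 3 in 12.85% and below them in 17.96%. Libraries in random order also give each such order in a part of the genes. Whether the shares of 21.7% and 23.2% exceed that part was not tested.

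The remaining genes of widest spread followed other orders. TMSB15A, a thymosin gene, had 39.1 CPM in replicate 2 and 88.6 to 100 CPM in the others, and NDUFB4, a subunit of respiratory complex I, had 79.0 CPM in replicate 2 and 154 to 167 CPM in the others. NDUFB7, a second subunit, had 42.5, 92.2, 65.0 and 90.3 CPM. The linker histone gene H1-2 had 317, 370, 258 and 161 CPM, and the minor spliceosome RNA RNU4ATAC had 411, 673, 1058 and 676 CPM. At the other end GLUL, glutamine synthetase, had 89.5, 89.6, 90.8 and 89.9 CPM, and UBE2D3, a ubiquitin-conjugating enzyme, had 363, 364, 360 and 369 CPM. The 12 genes with the smallest spread also included DHX33, CDC5L, MAGEF1, PHF19, KEAP1, VIRMA, OLFM1, CISD2, SEPTIN7 and TYMS. In all 12 the highest library was at most 1.03 times the lowest. They were picked for this from 3937 genes. For TYMS the spread of 1.07% of the mean lay under the 2.91% that counting alone gives. The biological coefficient of variation estimated for each of the 12 was 10.43% to 10.52%. Such estimates are drawn toward those of other genes, so they cannot tell whether the 12 are steady. Since the 12 were picked for their small spread, that spread does not show steady genes either. Among genes often used as references in quantitative PCR, all 14 were expressed, and ACTB with 860, 873, 899 and 923 CPM varied less than GAPDH with 3695, 3732, 3325 and 4489 CPM.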

How the data were processed

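The values are the authors' deposited raw counts per Ensembl gene, checked to be whole numbers. Per the labels' protocols, RNA was made into QuantSeq 3′ mRNA libraries with molecular barcodes and sequenced as single reads. The submitters' processing notes name FastQC 0.11.7, STAR 2.7.2b, edgeR 3.36.0, limma 3.50.3 and the build GRCh38. The sources used here do not give the counter, the strand setting or whether barcodes were collapsed. Groups came from the labels; the title of DMSO replicate 1 lacks the first letter of the line name, and its other labels give it in full.

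From the counts, CPM was computed on library totals, and the mean and SD over the 4 DMSO libraries were taken. No groups were compared and no p-value was computed. Gene models came from GENCODE 29, which held 58515 of 58787 identifiers, and symbols from a reference table that named 41930. Exon length is the union of a gene's exons; since a 3′ assay counts transcript ends, CPM per kb is given beside CPM and not in its place. A gene was taken as overlapped where another gene on the same strand shares part of its last 500 exon bases. Promoter windows were matched by symbol for 15300 of 19341 coding genes. The coefficient of variation was estimated with edgeR 4.0.16 in R 4.3.3 after its low-count filter, which kept 99.3% to 99.4% of the counts, and the step was tested on simulated data. DESeq2 1.42.0 gave alternative size factors; the other alternatives were other scalings, other thresholds, other totals and leaving out each library. Figures and tables were made with Python 3.11.15.

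The 4 libraries and the 29 lists were chosen with earlier results of these data known. Named genes were the 25 with the highest mean CPM, any member of the lists, and the 12 with the largest and the 12 with the smallest SD of log2(CPM + 0.5) among genes with a symbol and a mean of at least 50 CPM. AC011897.1, RPL36AP37, NNAT, ANTXR1, MEIS1, TLX2, NEAT1, LRATD1, SMC6 and RDH14 were named after their values were seen. Some genes are not reported here; counts, sums and ranks over lists include them.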

Additional observations from a re-analysis of the deposited data

Results flagged for a closer look

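In 12 of 356 values or sums examined, 1 library stood apart from the other 3 by Dixon's test at the 95% level, which chance alone passes in about 1 of 20 groups. Replicate 2 was highest for MCL1 at 272 CPM against 228 to 230 CPM in the others, for the helicase subunit MCM6 at 172 CPM against 134 to 141 CPM, and for YAP1 at 2.02 CPM against 0.769 to 0.813 CPM. It was lowest for NDUFB4 at 79.0 CPM against 154 to 167 CPM and for SIX3 at 57.6 CPM against 94.3 to 97.4 CPM. Replicate 1 was highest for the neurofilament gene NEFH at 253 CPM against 202 to 207 CPM and for the synaptic vesicle gene SYP at 90.9 CPM against 63.1 to 66.1 CPM. It was lowest for MYCL at 1.73 CPM against 4.04 to 4.34 CPM. Replicate 3 was lowest for IGFBP2 at 49.6 CPM against 75.5 to 78.0 CPM. Replicate 4 was highest for MYCNOS at 104 CPM against 86.1 to 89.0 CPM and for TH at 2.17 CPM against 0.576 to 0.757 CPM. It was lowest for the summed level of the 8 telomere genes at 1390 CPM against 1457 to 1469 CPM. The share of such values was 3.37%, and for TH, YAP1 and MYCL each value rests on few counts.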

How the results depend on the processing

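The number of expressed genes was 12783, and it was 11680 to 15720 with TMM factors, DESeq2 size factors, totals without MALAT1, 0.5 CPM in every library, 1 CPM in any library or 10 counts in every library. With any count in any library it was 23004. Without 1 library it was 12893 to 13104. Of the list genes 265 or 266 were expressed under the other scalings and 266 to 272 without 1 library. The share of counts in the 100 most abundant genes, 22.5%, was 21.5% with MALAT1 left out of the totals and the ranking, and 17.4% for the 100 genes with the most CPM per kb of exon. Without 1 library it was 22.2% to 22.7%. The coefficient of variation of 12.25% was 10.91% to 12.75% without 1 library, with the lowest value without replicate 4. Over all 20 libraries it was 12.46% with a term per group and 8.793% with the replicate number added as a block. No paired analysis was possible because no groups were compared, so the block enters only this estimate. Levels of 364 named genes moved by less than their SD between libraries under TMM and DESeq2 size factors, and 12 genes of very small spread moved by more with MALAT1 left out of the totals. Leaving out 1 library moved the mean of 31 of the 364 by over 1.5 times, and none of these 31 had a mean above 1.38 CPM. Among them ACHE had 0.0517 CPM without replicate 1, MYC 0.0842 CPM without replicate 1, CASP8 0.103 CPM without replicate 3, CDKN2B 0.148 CPM and TH 0.648 CPM without replicate 4, and INSM2 0.554 CPM without replicate 2.

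Genes at 1 to 10 CPM rest on few counts, and a count of 0 does not show absence under 0.146 CPM over the 4 libraries. Reads shared by overlapping or near-identical genes, the strand setting and the collapsing of barcodes limit single levels. The libraries stand for 1 cell line at 1 time.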

Other observations

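Some abundant genes lie outside the lists and were picked after their values were seen. NNAT, the imprinted neuronal gene neuronatin, had 2184, 2096, 1769 and 1978 CPM and ranked 36th of all genes. On the short arm of chromosome 2, far from MYCN, the anthrax toxin receptor gene ANTXR1 had 549, 426, 419 and 415 CPM, the homeobox gene MEIS1 had 349 ± 26.4 CPM and the homeobox gene TLX2 had 427 ± 44.8 CPM (SD, n = 4 each). They ranked 350th, 460th and 372nd. NEAT1, the RNA of nuclear paraspeckles and a neighbour of MALAT1 on chromosome 11, had 13.3, 8.08, 13.8 and 6.82 CPM, with replicates 1 and 3 above replicates 2 and 4 as in MALAT1.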
